A study of Mus musculus with 4 samples.

Results

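Axon guidance ligands and receptors were examined in mouse epiblast stem cells after knockdown of Tox4. Members were the rows of the series table whose gene symbol named a semaphorin of classes 3 to 7, a plexin, a neuropilin, an Eph receptor, an ephrin, a Slit, a Robo receptor, a netrin or an Unc5 receptor. The rule found 65 of the 15429 genes in the table, under 64 symbols, since Efna5 stood for a pair of identifiers. It also caught Unc50, a Golgi membrane protein gene, and Unc5cl, a death domain gene, which matched by symbol and were not counted among the netrin receptors. They are kept in the counts and set apart in the text.

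The cells were epiblast stem cells of the line OE7, isolated from the mouse post-implantation embryo and carrying the Oct4-Gip transgene, a reporter of Oct4, in every library. They were at passages 21 to 25, grown on fibronectin in N2B27 medium with Fgf2 at 12 ng/ml and Activin A at 20 ng/ml, and transfected in 6-well plates with 1000 ng of esiRNA and 2 µl of lipofectamine. An esiRNA is a pool of short interfering RNAs cut by enzyme from long double-stranded RNA. The control group received esiRNA against luciferase (Luc esiRNA, n = 2 libraries), and the other group received Tox4 esiRNA (n = 2 libraries). All libraries came from 1 line, and nothing in the labels says that libraries of 1 group are separate cultures. The p-values therefore rest on the spread between these libraries alone, and that spread may be technical. Each sample was a bulk sample, in which fewer cells expressing a gene and less RNA per cell cannot be told apart.

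Axon guidance molecules are extracellular and membrane proteins that steer growing axons and migrating cells by attraction or repulsion. Semaphorins signal through plexins, with neuropilins as co-receptors for most class 3 members. Ephrins are membrane-bound ligands of the Eph receptor tyrosine kinases and can signal back into the cell that carries them. Slits bind Robo receptors, and netrins bind Dcc and the Unc5 receptors. All of these families are also expressed outside the nervous system, and Eph receptors and ephrins act in the sorting of cells in the early embryo.

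Values are FPKM, reads scaled to gene length and library depth, as the authors deposited them. Whole reads worked back from them came to between 12778044 and 19008803 per library, and the Luc libraries held more than the Tox4 libraries (14998194 and 19008803 against 12778044 and 14739221). Tox4 was at 16.7 and 17.5 FPKM in the Luc libraries and at 8.65 and 8.89 FPKM in the Tox4 libraries, a log2 fold change of -0.89 (adjusted p = 0.00228 by limma, SE 0.05). The marker genes of epiblast stem cells were present in every library, with a summed level of 1248 to 1264 FPKM for 8 markers in the Luc libraries and 1254 to 1284 FPKM in the Tox4 libraries. Among these 8, Sox2 rose from 76.3 to 90.4 FPKM in the group means (log2 fold change 0.24, adjusted p = 0.0355 by limma) and 7 did not pass, of which 2, Dnmt3b and Otx2, were lower at an unadjusted p under 0.05. Of 5 markers of endothelium, which also uses these families in vessel guidance, 4 were in the table. Their sum was 1.04 to 1.30 FPKM in the Luc libraries and 0.882 to 3.15 FPKM in the Tox4 libraries. The 3.15 FPKM, in Tox4 replicate 2, came from Tie1 (2.01 FPKM on 1 read) and Kdr (1.14 FPKM on 4 reads).

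The members were expressed over a wide range. Of the 65, 22 averaged at least 10 FPKM across the libraries, 25 lay between 1 and 10 FPKM, and 18 lay under 1 FPKM, of which 1 was listed at 0 in every library. The 47 members with a mean of at least 1 FPKM were tested for a difference between the groups. Among them 4 rose and 4 fell with Tox4 esiRNA (limma, Benjamini-Hochberg adjusted p under 0.05 over 12403 genes), and 39 did not pass. That was 17.0% of the tested members, where 4.51% of all tested genes passed, 1.89% as higher and 2.62% as lower. The groups stood apart, with no overlap of their values, for 27 of the 47 members, 57.4%, against 52.0% of all tested genes, with 16 higher and 11 lower. The median log2 fold change of the tested members was 0.03, and that of all tested genes was -0.0034. Without Unc50, 17.4% of 46 tested members passed. At an unadjusted p under 0.05 there were 17 members, 36.2%, against 21.6% of all tested genes. With any 1 library left out, so that its group held a lone library, fewer members were called, as were fewer of all tested genes. Without Luc replicate 1, 27 of all tested genes were called higher and 34 lower, against 234 and 325 with all 4 libraries.

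Both ligands and receptors were among the called genes. Of 35 ligand genes 28 were tested, of which 2 rose, 3 fell and 23 did not pass, with a median log2 fold change of 0.0017. Of 28 receptor genes 18 were tested, of which 2 rose, 1 fell and 15 did not pass, with a median of 0.07. The genes that rose were Efnb1, Ntn3, Epha4 and Unc5a, and those that fell were Sema3c, Epha1, Sema3e and Sema6b. The groups stood apart for each of them, as for 52.0% of all tested genes. A call on 2 libraries per group nearly requires this, so it is no separate result.

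**Figure D1:**
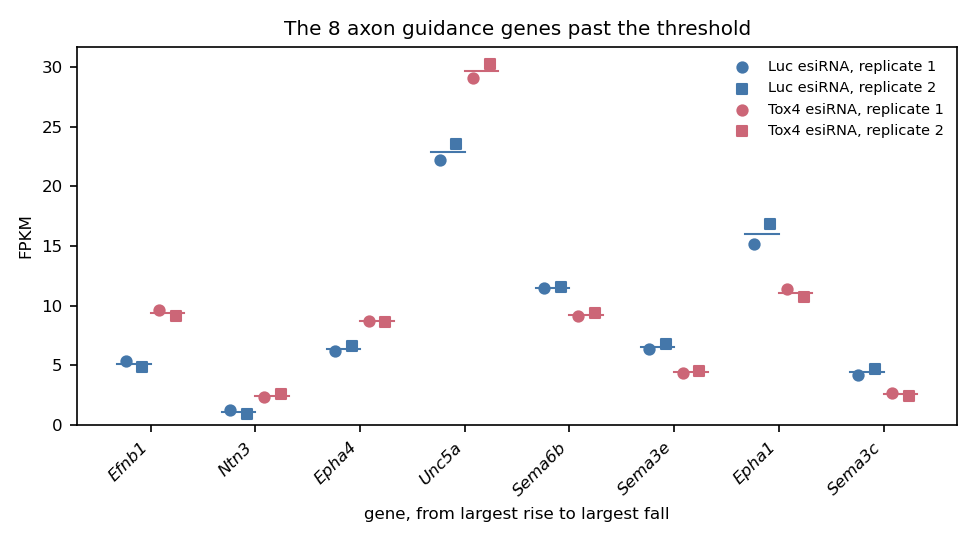
FPKM (vertical axis, from 0) of the 8 axon guidance genes past the limma threshold, with 1 point per library, blue for Luc and red for Tox4 esiRNA, circles for replicate 1 and squares for replicate 2, and short lines at the group means (n = 2). In each of the 8 genes, chosen by that threshold, the blue and red points do not overlap, as was so for 52.0% of all tested genes. Unc5a is the most abundant of the 8 at 22.2 to 30.2 FPKM.

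The upstream sequence of the called genes was taken from RefSeq (GRCm38.p6), in which 56 of the 64 member symbols had a window. The 250 bases before the start are shown for the 4 called genes with 1 window that held no annotated exon, 2 of which rose and 2 fell, since these are the members whose transcripts differed. They are written 5′ to 3′ on the strand of the gene, with capitals for GC boxes (GGGCGG) and CCAAT boxes (CCAAT) on either strand. The windows are chrX:99135811-99136060 (plus strand) for Efnb1, chr13:54949161-54949410 (plus strand) for Unc5a, chr5:14025026-14025275 (plus strand) for Sema3e and chr6:42373269-42373518 (minus strand) for Epha1.
Efnb1: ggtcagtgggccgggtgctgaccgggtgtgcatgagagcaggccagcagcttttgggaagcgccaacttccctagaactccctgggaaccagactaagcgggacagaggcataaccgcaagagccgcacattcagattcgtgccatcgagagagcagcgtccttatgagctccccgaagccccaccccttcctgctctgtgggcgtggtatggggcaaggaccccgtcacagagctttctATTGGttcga
Unc5a: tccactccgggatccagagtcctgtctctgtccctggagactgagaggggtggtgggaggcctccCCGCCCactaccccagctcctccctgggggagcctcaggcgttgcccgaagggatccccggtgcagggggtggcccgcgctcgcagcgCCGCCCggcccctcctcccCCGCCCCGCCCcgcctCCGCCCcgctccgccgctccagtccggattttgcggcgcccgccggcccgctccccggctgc
Sema3e: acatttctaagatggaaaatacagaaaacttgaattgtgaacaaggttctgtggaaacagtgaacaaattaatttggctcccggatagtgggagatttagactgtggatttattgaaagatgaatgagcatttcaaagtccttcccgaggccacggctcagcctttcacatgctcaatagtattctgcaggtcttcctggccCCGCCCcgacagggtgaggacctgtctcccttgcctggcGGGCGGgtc
Epha1: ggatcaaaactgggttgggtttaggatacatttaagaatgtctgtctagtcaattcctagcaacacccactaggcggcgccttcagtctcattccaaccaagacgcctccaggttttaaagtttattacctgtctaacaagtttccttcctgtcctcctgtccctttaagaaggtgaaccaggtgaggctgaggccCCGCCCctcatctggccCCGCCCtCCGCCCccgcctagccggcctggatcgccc
The RefSeq start of Efnb1 lies upstream of the GENCODE start, 99136130, so its window ends short of the latter. The 4 windows differed in base composition. The Unc5a window held 25 CpG pairs, 76.8% G or C and 5 GC boxes, while that of Sema3e held 7 CpG pairs, 48.0% G or C and 2 GC boxes. The Epha1 window had 3 GC boxes, 9 CpG pairs and 54.4% G or C, and that of Efnb1 had no GC box, 1 CCAAT box, 13 CpG pairs and 60% G or C. A GC box was found in 44 of 55 windows of tested members (80.0%), in 59.5% of the windows of all tested genes and in 32.7% of all windows of this length. A CCAAT box was found in 27.3%, 35.6% and 33.9%. The TATA box (TATAAA) was found in 3.64% of the windows of tested members against 5.96% for all tested genes, the E-box (CACGTG) in 3.64% against 8.30%, and a T-box site (AGGTGTGA) in 0 of 55 against 0.592%. A Sox core (AACAAAG) was found in 3.64% against 3.38%. The median window of tested members and that of all tested genes each held 16 CpG pairs, while the median G or C content was 64.8% for tested members and 60.4% for all tested genes. Several genes had more than 1 window, so windows are not independent, and a match is a run of letters only.

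Class 3 semaphorins, the secreted semaphorins, differed in direction from gene to gene. Of 6 listed, 4 were tested, of which 2 fell, none rose and 2 did not pass (limma); at an unadjusted p under 0.05, 1 was higher and 3 were lower. The groups did not overlap for any of the 6. Over all tested genes, 21.6% were under that cutoff and 52.0% had groups apart. Sema3a and Sema3d, which were not tested, rested on 3 to 19 reads per library. Sema3c (ENSMUSG00000028780, chromosome 5, 17574281 to 17730268, plus strand), a ligand that acts in heart outflow tract development, was at 4.18 and 4.71 FPKM in Luc replicates 1 and 2 and at 2.70 and 2.44 FPKM in Tox4 replicates 1 and 2. The Tox4 libraries were both lower, with means of 4.45 ± 0.376 and 2.57 ± 0.182 FPKM (SD, n = 2 each), a ratio of 0.579. The log2 fold change on the log2(FPKM + 1) scale was -0.61 (adjusted p = 0.0285 by limma, SE 0.09), on 407, 362, 204 and 160 reads.

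Sema3e (ENSMUSG00000063531, chromosome 5, 14025276 to 14256689, plus strand), which can bind Plxnd1 without a neuropilin, was at 6.35 and 6.80 FPKM in the Luc libraries and at 4.38 and 4.49 FPKM in the Tox4 libraries. Again neither Tox4 library reached the lower Luc library. Its log2 fold change was -0.48 (adjusted p = 0.0252 by limma, SE 0.07), on 826, 698, 442 and 393 reads. The calls of Sema3c and Sema3e were lost without Luc replicate 1 (adjusted p = 0.111 and 0.125) and without Luc replicate 2 (0.165 and 0.160), and that of Sema3c also without Tox4 replicate 2 (0.0524).

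Sema3f, which signals with the co-receptor Nrp2, was at 5.80 and 5.37 FPKM with Luc esiRNA and 6.88 and 7.36 FPKM with Tox4 esiRNA. It did not pass (log2 fold change 0.30, SE 0.07, limma adjusted p = 0.0740). It passed as higher among genes of at least 5 FPKM (limma adjusted p = 0.0447) and by limma-voom on recovered reads (0.0111), which called 11.8% of all tested genes. The 5 FPKM setting called 365 higher and 476 lower of 9066 genes, against 234 and 325 of 12403 in the main test. Sema3e was the most abundant class 3 gene in each Luc library, and Sema3f in each Tox4 library. Sema3b was at 3.38 and 3.72 FPKM and at 2.91 and 2.74 FPKM, and did not pass either (-0.25, adjusted p = 0.177).

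Sema3a, the founding secreted repellent of sensory axons, was too low to be tested. It was listed at 0.179 and 0.170 FPKM in the Luc libraries and at 1.10 and 1.13 FPKM in the Tox4 libraries. These values rested on 4 and 3 reads and on 19 and 17 reads. Scaled to depth, the ratio of reads was 6.36, with an exact 95% interval of 2.79 to 16.9 that covers counting error only. In the test without a filter on low values its log2 fold change was 0.85, with an adjusted p of 0.0738 (limma), and 2.3% of all genes passed in that test. Sema3d was listed at 0.684 and 0.770 FPKM and at 0.441 and 0.339 FPKM, on 18, 16, 9 and 6 reads, a ratio of reads of 0.545 with an interval of 0.276 to 1.03.

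Sema3d, Sema3a, Sema3e and Sema3c lie in that order on the plus strand of chromosome 5 (GRCm38). The gap between neighbours was 536.5 kb from Sema3d to Sema3a, 422.7 kb from Sema3a to Sema3e and 3317.6 kb from Sema3e to Sema3c. Their values did not move one way along the chromosome: Sema3e and Sema3c fell, Sema3d was lower on few reads, and Sema3a, between Sema3d and Sema3e, was higher on few reads. Sema3b and Sema3f, 72.3 kb apart on the minus strand of chromosome 9, also had values in opposite directions.

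**Figure D2:**
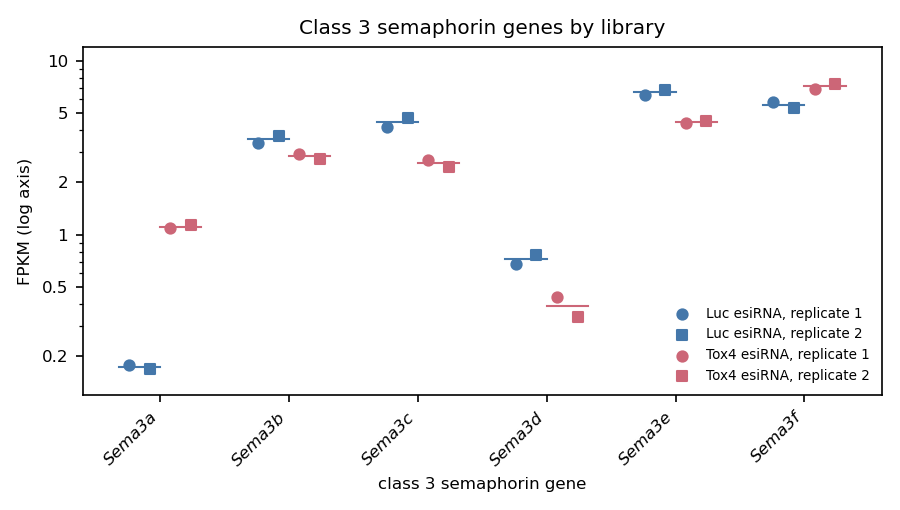
FPKM on a log axis of the 6 class 3 semaphorin genes, with 1 point per library (blue Luc, red Tox4 esiRNA, circles replicate 1, squares replicate 2) and lines at the group means. Sema3b, Sema3c, Sema3d and Sema3e have lower red points and Sema3a and Sema3f higher ones, and Sema3a moves between 0.170 and 1.13 FPKM on at most 19 reads per library.

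Semaphorins of classes 4 to 7 are membrane-bound. Of 13 listed, 11 were tested, of which 1 fell, none rose and 10 did not pass (limma, median log2 fold change -0.02). At an unadjusted p under 0.05, 1 of them, Sema5b, was higher, as it was in limma-voom (adjusted p = 0.0353). The gene that fell was Sema6b (ENSMUSG00000001227, chromosome 17, 56123085 to 56140343, minus strand), a transmembrane ligand of A-type plexins. It was at 11.5 and 11.6 FPKM with Luc esiRNA and at 9.15 and 9.36 FPKM with Tox4 esiRNA, so the groups were apart by more than the spread within each. Its log2 fold change was -0.29 (adjusted p = 0.0404 by limma, SE 0.05), the call nearest to the threshold among the members. It was lost with each library left out in turn, where the log2 fold change ran from -0.30 to -0.27. The call was also lost with the replicate number as a block (limma adjusted p = 0.0597), with low genes kept (0.0530) and without an intensity trend (0.0740).

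Sema6a was the most abundant semaphorin, at 19.9 and 20.8 FPKM in the Luc libraries and 21.9 and 21.0 FPKM in the Tox4 libraries, and did not pass (log2 fold change 0.08, limma adjusted p = 0.413). Sema4d, the ligand of Plxnb1, was at 16.3 ± 0.0533 and 16.0 ± 0.183 FPKM (SD, n = 2 each; -0.02). Sema6c was at 15.1 and 15.8 FPKM, Sema4c at 15.0 and 14.1 FPKM, Sema4b at 10.4 and 10.3 FPKM and Sema4g at 10.2 and 9.94 FPKM in the Luc and Tox4 means. Sema5b was at 6.31 and 7.29 FPKM (0.18, adjusted p = 0.159). Sema4a, Sema5a and Sema6d were between 1.01 and 2.08 FPKM in the group means. Sema4f and Sema7a, the last anchored by a lipid, lay under 1 FPKM on average and were not tested. The depth-scaled ratio of reads was 0.668 for Sema7a (exact 95% interval 0.458 to 0.963) and 1.09 for Sema4f (0.827 to 1.43). These intervals cover counting error only. In the test with low genes kept, the adjusted p was 0.492 for Sema7a and 0.861 for Sema4f (limma).

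Plexins, the semaphorin receptors, held no call. Of 8 listed, 5 were tested and none passed (limma). Each had a positive log2 fold change, though the groups overlapped for Plxnb2, Plxnb1 and Plxna3. The other 2, Plxna1 and Plxnd1, were at an unadjusted p under 0.05 (limma), as were 21.6% of all tested genes. Plxnb2 was the most abundant, at 49.6 and 52.5 FPKM in the Luc libraries and 54.3 and 52.0 FPKM in the Tox4 libraries, and its groups overlapped (log2 fold change 0.06, SE 0.04, adjusted p = 0.516). Plxna1 followed at 32.1, 33.8, 36.9 and 35.6 FPKM in the same order (0.13, adjusted p = 0.156). Plxnd1, the Sema3e receptor, was at 9.58 and 10.9 FPKM with Luc esiRNA and 12.6 and 12.2 FPKM with Tox4 esiRNA (0.25, SE 0.07, adjusted p = 0.107). Plxnb1 was at 10.6 and 11.0 FPKM and Plxna3 at 5.83 and 6.06 FPKM in the group means. Plxna2, Plxna4 and Plxnc1 lay under 1 FPKM. In limma-voom, Plxna1 and Plxnd1 passed as higher (adjusted p = 0.0251 and 0.00421). Exons of Plxna1 and Plxnb1 share 970 and 257 bases with antisense genes, whose reads cannot be told apart if the counting did not use strand.

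Neuropilins were near the limit of detection. Nrp1, the co-receptor of Sema3a, was listed at 0.164 to 0.501 FPKM on 2, 1, 3 and 2 reads, and Nrp2 at 0.254 to 1.05 FPKM on 4, 2, 4 and 7 reads. The ratio of reads was 2.06 for Nrp1 (exact 95% interval 0.401 to 13.3) and 2.27 for Nrp2 (0.768 to 7.46), so no difference was detectable at this depth.

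Ephrin-B1 had the largest log2 fold change among the tested members, on the log2(FPKM + 1) scale. Efnb1 (ENSMUSG00000031217, chromosome X, 99136130 to 99148991, plus strand) encodes a transmembrane ligand of EphB receptors. It was at 5.38 and 4.88 FPKM in Luc replicates 1 and 2 and at 9.68 and 9.11 FPKM in Tox4 replicates 1 and 2. Both Tox4 libraries were well above both Luc libraries, with means of 5.13 ± 0.352 and 9.40 ± 0.404 FPKM (SD, n = 2 each) and a ratio of 1.83. The log2 fold change was 0.76 (adjusted p = 0.00792 by limma, SE 0.07, 95% interval 0.59 to 0.94), on 338, 242, 472 and 385 reads. It was past the threshold in each alternative apart from the one without Luc replicate 2 (adjusted p = 0.0580), and was the only member called when no intensity trend was fitted (0.0392).

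The other B-type ephrins did not pass. Efnb2, the most abundant ephrin, was at 29.5 and 29.1 FPKM with Luc esiRNA and 31.2 and 30.2 FPKM with Tox4 esiRNA (log2 fold change 0.07, 95% interval -0.03 to 0.16, limma adjusted p = 0.402). Efnb3 was at 4.87 and 4.98 FPKM (0.03, interval -0.15 to 0.21). Efnb1 made up a larger part of the summed ephrin-B level in the Tox4 libraries, since the share of Efnb2 was 74.6% with Luc and 68.1% with Tox4 esiRNA.

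The A-type ephrins, which are held to the membrane by a lipid anchor, had values on either side of 0. Of 6 rows 5 were tested and none passed (limma; 1 higher and 1 lower at an unadjusted p under 0.05), and the second Efna5 identifier was at 0 in every library. The Luc libraries averaged 8.95 ± 0.0715 FPKM for Efna1 and the Tox4 libraries 7.28 ± 0.0152 FPKM (SD, n = 2 each), with a log2 fold change of -0.27 (SE 0.06, adjusted p = 0.0557). Efna3 was at 5.58 and 6.07 FPKM and at 7.04 and 7.68 FPKM (0.29, SE 0.07, adjusted p = 0.0875). Efna4, the most abundant of them, was at 12.9, 12.4, 11.2 and 12.2 FPKM (-0.11, adjusted p = 0.366). These 3 genes are neighbours on the minus strand of chromosome 3, with 32.8 kb between Efna1 and Efna3 and 10.4 kb between Efna3 and Efna4. Exons of Efna3 and Efna4 share 344 and 168 bases with antisense genes, whose reads cannot be told apart if the counting did not use strand. Efna2 was at 6.79 and 7.92 FPKM and Efna5 at 1.81 and 2.01 FPKM in the group means. Efna1 passed when only genes of at least 5 FPKM were tested (adjusted p = 0.0353), and Efna3 in limma-voom on the recovered reads (0.0331).

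Eph receptors of the A type included 1 gene that rose and 1 that fell. Of 7 listed, 5 were tested and 3 did not pass (limma). Epha4 (ENSMUSG00000026235, chromosome 1, 77367185 to 77515088, minus strand), which binds ephrins of both types, was at 6.21 and 6.61 FPKM with Luc esiRNA and 8.74 and 8.66 FPKM with Tox4 esiRNA. The Tox4 libraries lay close together and above both Luc libraries. Its log2 fold change was 0.39 (adjusted p = 0.0299 by limma, SE 0.06), and its call was lost with each library left out in turn (adjusted p from 0.0570 to 0.179).

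Epha1 (ENSMUSG00000029859, chromosome 6, 42358487 to 42373268, minus strand), a receptor of epithelial cells, was at 15.2 and 16.9 FPKM in the Luc libraries and at 11.4 and 10.8 FPKM in the Tox4 libraries. The Tox4 values were lower by more than the spread within either group, with a ratio of 0.692. The log2 fold change was -0.49 (adjusted p = 0.0197 by limma, SE 0.07). It was lost without Luc replicate 1 (adjusted p = 0.0576) and without Luc replicate 2 (0.105). Exons of Epha1 and of Zyx on the opposite strand share 236 bases, and Zyx had a log2 fold change of -0.0010. Whether the counting used strand is not given in the sources used here.

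Epha2, the most abundant Eph receptor, was at 54.2 and 56.4 FPKM with Luc esiRNA and 49.5 and 49.1 FPKM with Tox4 esiRNA. It did not pass (log2 fold change -0.16, SE 0.04, limma adjusted p = 0.0715), but did in limma-voom on the recovered reads (0.0116) and among genes of at least 5 FPKM (0.0430). Both settings called a larger share of all genes than the main test. Epha7 was at 3.70 and 4.22 FPKM and Epha10 at 1.45 and 1.46 FPKM. Epha8 and Epha5 were under 1 FPKM. Their depth-scaled ratios of reads were 0.644 (exact 95% interval 0.446 to 0.919) and 0.494 (0.0471 to 3.02), for counting error only. With low genes kept, the adjusted p was 0.514 for Epha8 and 0.682 for Epha5 (limma). The summed level of the A-type receptors was 81.8 and 86.4 FPKM in the Luc libraries and 76.2 and 74.8 FPKM in the Tox4 libraries.

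The B-type receptors, through which ephrin-B1 acts, held no call (limma, 4 of 5 tested, 1 at an unadjusted p under 0.05). Ephb4, a receptor of ephrin-B2, was at 28.9 and 29.9 FPKM with Luc esiRNA and 33.3 and 33.4 FPKM with Tox4 esiRNA (log2 fold change 0.18, SE 0.04, adjusted p = 0.0655). It passed in limma-voom (0.00945) and among genes of at least 5 FPKM (0.0391), settings that called a larger share of all genes than the main test. Ephb3 was at 19.9 and 20.3 FPKM, Ephb2 at 12.8 and 13.9 FPKM and Ephb6, whose kinase domain is inactive, at 5.21 and 5.52 FPKM in the group means, and the groups overlapped for each of these 3. Ephb1 was listed at 0.273 to 0.414 FPKM on 4 to 9 reads.

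Slit3 was the most abundant member of all. It encodes a secreted ligand of Robo receptors and was at 64.3 and 65.1 FPKM in the Luc libraries and 68.1 and 68.9 FPKM in the Tox4 libraries. The groups did not overlap, but the difference did not pass (log2 fold change 0.08, SE 0.03, limma adjusted p = 0.234). Slit3 made up 97.2% of the summed Slit level with Luc and 96.9% with Tox4 esiRNA. Slit2 was at 1.13 and 1.17 FPKM, and Slit1 at 0.744 and 1.04 FPKM on 66 to 81 reads. The receptors stood far lower: Robo1 was at 2.33, 2.67, 3.20 and 2.80 FPKM (0.19, adjusted p = 0.354), Robo4, a Robo gene of endothelium, at 1.13 and 1.08 FPKM, and Robo2 and Robo3 under 1 FPKM on 2 to 9 reads. Slit2, Slit3, Robo1 and Robo4, the Slit and Robo genes tested, neither passed nor were at an unadjusted p under 0.05 (limma), and none was called in limma-voom. For Slit1, which was not tested, the depth-scaled ratio of reads was 1.40 (exact 95% interval 1.10 to 1.78, counting error only). With low genes kept, its adjusted p was 0.508 (limma). The ratios of Robo2 and Robo3 were 1.73 (0.473 to 6.91) and 1.43 (0.633 to 3.26).

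Netrins and their receptors included 2 genes that rose. Ntn3, a netrin gene, was at 1.23 and 0.931 FPKM in the Luc libraries and at 2.35 and 2.58 FPKM in the Tox4 libraries, on 112, 67, 166 and 158 reads. The groups were well apart, with means of 1.08 ± 0.210 and 2.46 ± 0.163 FPKM (SD, n = 2 each), a ratio of 2.28, the highest among the called genes. The log2 fold change was 0.74 (adjusted p = 0.0345 by limma, SE 0.12). The call was lost with each library left out in turn, where the log2 fold change ran from 0.64 to 0.84. It was also lost with low genes kept (limma adjusted p = 0.0552) and without an intensity trend (0.0609). The identifier of Ntn3 (ENSMUSG00000079662) was not found in the annotation used here. In RefSeq, Ntn3 (chromosome 17, 24203831 to 24209387) shares 1732 bases of its span with Tbc1d24 at its 3′ end, so that reads there could have been counted for either gene. Tbc1d24 had a log2 fold change of -0.07.

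Ntn1, the netrin best known as an axon attractant, was at 2.69, 2.62, 2.78 and 2.38 FPKM, and its groups overlapped (log2 fold change -0.03, limma adjusted p = 0.895). Ntn4 was at 2.55 and 2.51 FPKM in the group means, and Ntn5 had 2 reads in Tox4 replicate 2 and none in the other libraries. Unc5a (ENSMUSG00000025876, chromosome 13, 54949411 to 55006018, plus strand), a repulsive netrin receptor, rose from 22.2 and 23.5 FPKM in the Luc libraries to 29.1 and 30.2 FPKM in the Tox4 libraries. Each Tox4 library exceeded each Luc library, and the ratio was 1.30. The log2 fold change was 0.36 (adjusted p = 0.0191 by limma, SE 0.05), and the call was lost without Luc replicate 1 (0.114) and without Luc replicate 2 (0.0762). Its paralog Unc5b was higher in level, at 38.0, 39.2, 39.0 and 38.5 FPKM, and differed by 0.01 (95% interval -0.09 to 0.10, adjusted p = 0.958). Unc50 was at 34.4 and 33.4 FPKM, and Unc5cl had 1 read in Tox4 replicate 1.

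**Figure D3:**
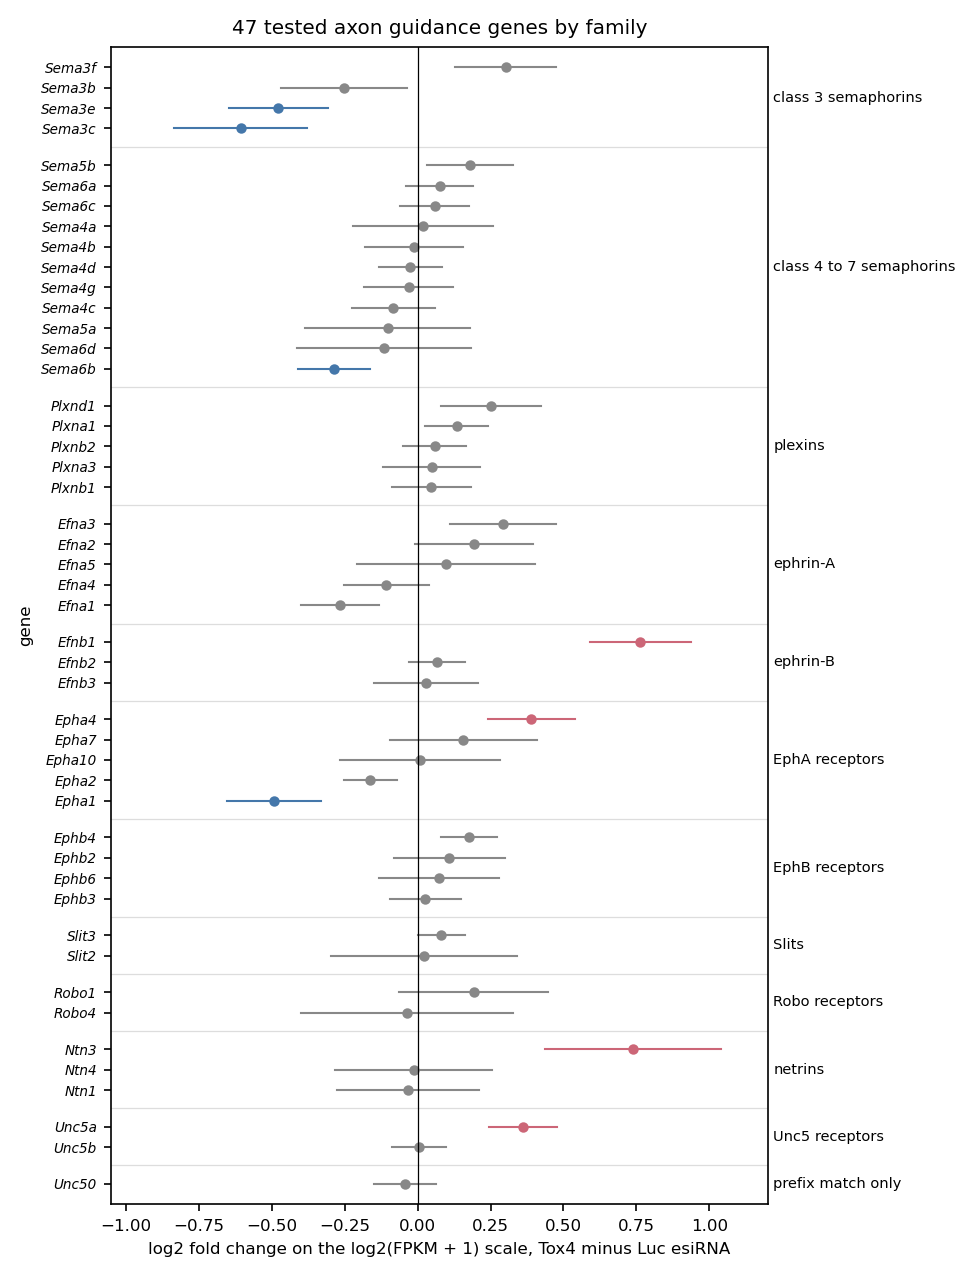
Log2 fold changes on the log2(FPKM + 1) scale, Tox4 minus Luc esiRNA, of the 47 tested axon guidance genes by family, with bars for 95% intervals from limma (n = 2 libraries per group), red for genes that rose, blue for genes that fell and grey for genes that did not pass. Efnb1 at 0.76 and Ntn3 at 0.74 lie farthest to the right and Sema3c at -0.61 farthest to the left.

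**Figure D4:**
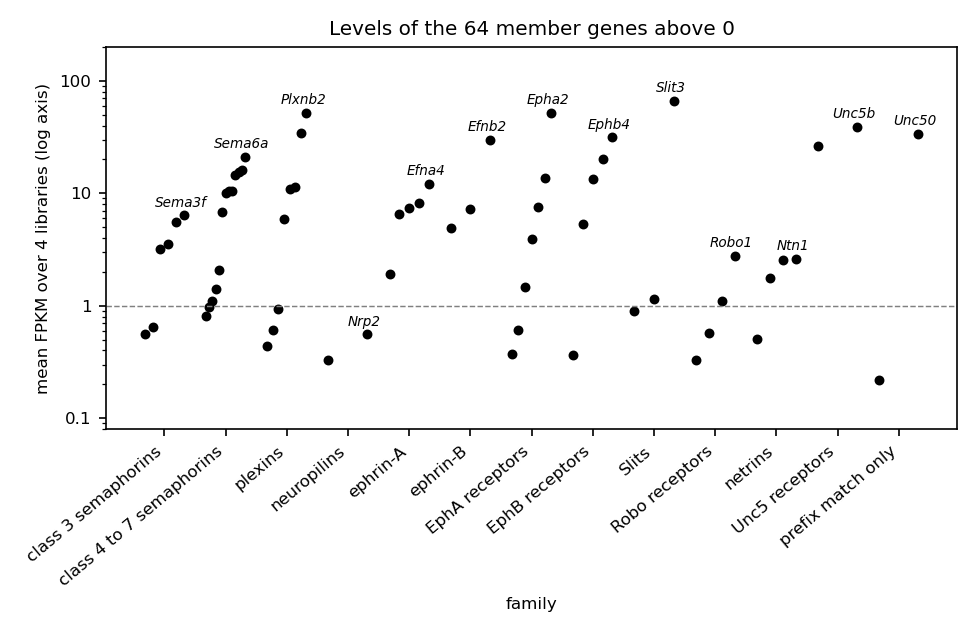
Mean FPKM over the 4 libraries on a log axis for the 64 member genes above 0, by family, with 1 point per gene and the most abundant gene of each family named; the dashed line marks 1 FPKM, the lower bound for testing. Slit3, Epha2 and Plxnb2 are the most abundant, and both neuropilins lie under the line.

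The gene length behind the deposited values bears on levels compared between genes. For each gene the deposited FPKM and its reads imply the length by which the authors divided. For 32 members with 1000 or more reads over the 4 libraries that length was 37.2% to 99.5% of the annotated exon length, with a median of 82.4%. For 11 members with 1 to 100 reads it was 0.993% to 16.0%, with a median of 4.06%. It was 1148 bases for Sema3a, whose annotated exons span 13868 bases, and 512 bases for Nrp2 against 11842. Over the whole table the medians were 77.3% for 8602 genes with 1000 or more reads and 17.5% for 2999 genes with 1 to 100 reads. The same length was used in all 4 libraries, so ratios between libraries do not depend on it, but FPKM levels of members with few reads are higher than their reads per annotated base. Scaled to the annotated exon length in place of the implied length, Sema3a stood at 0.0148 with Luc and 0.0943 with Tox4 esiRNA.

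**Figure D5:**
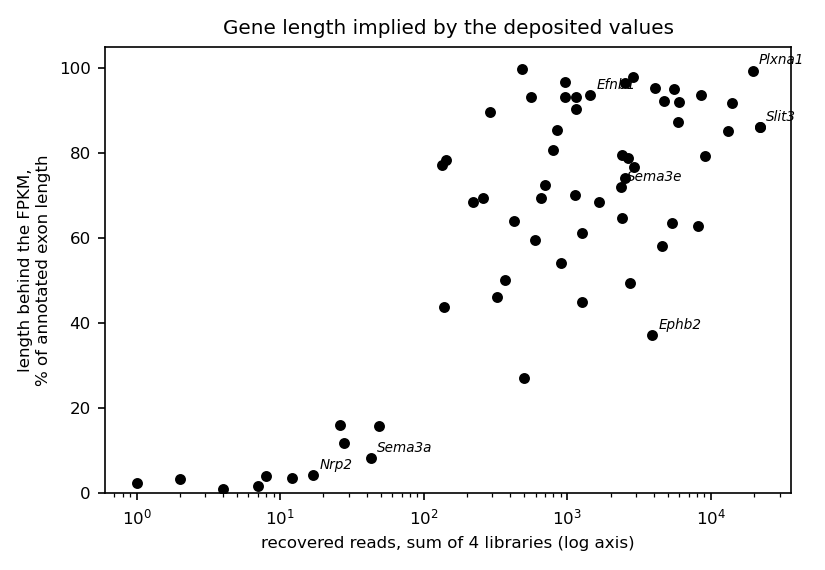
Length implied by the deposited FPKM, as a percentage of the annotated exon length (vertical axis), against the recovered reads summed over the 4 libraries (log axis), with 1 point per member gene. Members with at most 100 reads lie at 16.0% or lower, and those with 1000 or more reads at 37.2% or higher.

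Genes that act beside or below these receptors were taken from a list of co-receptors, proteases, adaptors, and cytoskeletal effectors with their regulators. Of 90 listed symbols, 87 were in the table, and 75 of their rows were tested, with Mical3 tested under a pair of identifiers. Of these rows 2 rose, none fell and 73 did not pass (limma), with a median log2 fold change of 0.02. The 2 calls were 2.67% of the tested rows of the list, beside 4.51% of all tested genes. At an unadjusted p under 0.05, 18 of the 75 were higher and 6 lower (limma), where 21.6% of all tested genes were under that cutoff. Ptk7, a receptor with an inactive kinase domain, rose from 132 and 135 FPKM in the Luc libraries to 159 and 165 FPKM in the Tox4 libraries (0.28, SE 0.04, adjusted p = 0.0186). Dpysl4, of the collapsin response mediator family that relays semaphorin signals, rose from 5.70 and 6.16 FPKM to 7.85 and 8.02 FPKM (0.37, SE 0.07, adjusted p = 0.0400). The counts of the list depended on the fit, with 13 higher and 3 lower in limma-voom and none higher when either Luc library was left out.

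Some markers of neural progenitors and of the primitive streak differed between the groups, while others in the same lists did not pass. Of 9 neural progenitor markers 8 were in the table and 6 were tested, of which 3 did not pass and 3 rose, namely Sox1, Ncam1 and Fabp7 (limma). Those that did not pass were Nes, Tubb3 and Map2, with log2 fold changes of -0.06, -0.0017 and 0.09. The summed level of the 8 was 92.6 to 93.9 FPKM in the Luc libraries and 107 to 108 FPKM in the Tox4 libraries. Nes was the largest part of it, at 52.1 and 49.9 FPKM in the Luc and Tox4 means. None of the 8 was at 0 in every library, while Pax6 and Dcx were under 1 FPKM. Of 5 primitive streak markers 4 were tested, of which T fell and 3 did not pass. Those 3 were Eomes, Gsc and Fgf8, with log2 fold changes of -0.28, -0.12 and -0.07. T went from 12.4 to 5.45 FPKM in the group means (log2 fold change -1.06, limma adjusted p = 0.00228). At an unadjusted p under 0.05, 2 streak markers were lower, T and Eomes (limma). The sum of the streak markers was 85.0 to 89.6 FPKM in the Luc libraries and 74.5 to 77.5 FPKM in the Tox4 libraries. Most of it was Fgf8, at 65.1 and 62.2 FPKM in the Luc and Tox4 means. Of 7 fibroblast markers 4 were tested and none passed (limma; 1 at an unadjusted p under 0.05, lower), with a sum of 20.4 FPKM in each Luc library and 18.2 to 19.0 FPKM in the Tox4 libraries. Their part in the differences of the axon guidance genes was not tested.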

How the data were processed

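RNA was extracted with a column kit, selected with oligo(dT) and sequenced, per the labels' protocols. The submitters' processing notes name CASAVA 1.8, STAR 2.3.0e and the build GRCm38.p1; the counting tool, gene lengths and strandedness were not given in the sources used here. The authors deposited FPKM per gene and library. Every value above 0 was a whole number of single-read steps (relative tolerance 1e-09), so reads were recovered as the smallest whole numbers that fit; 4.29% of tested genes needed a common factor. Library totals are given above, and intervals on reads cover counting error only.

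Differences were tested with limma 3.58.1 in R 4.3.3 on log2(FPKM + 1), two-sided, with an intensity trend, for genes that averaged 1 FPKM or more, on all 4 libraries, with Benjamini-Hochberg adjustment over 12403 genes and a threshold of 0.05. The code was tested on simulated data. The test was preferred to a count model because the deposited unit is FPKM. Members and lists were chosen with earlier results of these data known. Named members were those past the threshold in any setting, the most abundant tested gene of each family, and those with groups apart and a log2 fold change of at least 0.2 in size; other members appear where a family is enumerated. Exon lengths and overlaps came from GENCODE M21, and Ntn3, which is absent from it, from RefSeq. No column of values was left unmapped. Alternatives covered pseudocounts of 0.1 and 0.5, the filter, the trend, scaling, limma-voom on recovered reads, a replicate block and leaving out each library.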

Additional observations from a re-analysis of the deposited data

How the results depend on the processing

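Of 333 values for single genes under the alternatives, 287 kept their direction and side of the threshold, 32 lost the call, 11 gained it and 3 changed sign. The sign changes were Unc5b (-0.0152 without Luc replicate 1 and -0.0048 without Tox4 replicate 1) and Ntn1 (0.0480 without Tox4 replicate 2). With 1 library left out in turn their log2 fold changes ran from -0.0152 to 0.0258 and from -0.112 to 0.0480, and neither was called. The cause was not tested. The 4 members higher and 4 lower became 1 and 0 without an intensity trend, and 10 higher with limma-voom on recovered reads. For the members that lost the call without the trend, the limma adjusted p ran from 0.0537 (Sema3e) to 0.0740 (Sema6b). With 1 library left out they were 0 to 2 higher and 0 to 3 lower; the lone library of its group is then assumed to vary like the other group. Over all tested genes the calls were 33 higher and 45 lower without a trend, and 738 and 728 with limma-voom. Among the 9066 genes of at least 5 FPKM the calls were 365 higher and 476 lower. For the signalling partners, 2 higher became 1 with low genes kept, 5 among genes of at least 5 FPKM, 0 without a trend, 13 with limma-voom and 0 to 2 with 1 library left out. Partners lower became 1 among genes of at least 5 FPKM, 1 with quantile normalization and 3 with limma-voom. Tox4 stayed past the threshold in each alternative. Over all tested genes, calls also differed with low genes kept (146 higher and 202 lower), without Luc replicate 2 (28 and 35) and without Tox4 replicate 2 (141 and 296).

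The libraries of the groups share replicate numbers. The deviations of same-numbered libraries from their group means had a correlation of -0.0363 across 12403 genes, and the labels give no shared batch. Whether same-numbered libraries share more than a number cannot be told from this correlation or from the labels. With the replicate number as a block, 4 members were higher and 3 lower, beside 222 higher and 334 lower of all 12403 tested genes.

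The depth gave a median of 525 reads per library over the tested members; differences in the neuropilins, with 1 to 7 reads per library, were not detectable at this depth.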
